A study of Mus musculus with 16 samples.

Results

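The interferon response and MHC class I genes described here are 39 listed mouse genes in 4 lists: 24 interferon-induced genes, 4 STAT and IRF transcription factors, both chains of the type I interferon receptor, and 9 genes of antigen presentation. A gene was kept where it reached 1 CPM of total exon reads, the reads of a gene divided by those of its library and multiplied by 1000000, in any condition. That left 30 of the 39 genes, out of 11122 features at that level among 38918 in the tables: 15 interferon-induced genes and every gene of the other 3 lists. The cells were mouse pre-B cells, precursors of B lymphocytes, from Blnk-/- mice. They lack the adaptor BLNK and carry a retroviral BLNK-ERt2 fusion, which tamoxifen switches on, and this holds for the control too. Stimulated cells were sampled at 0.5, 1.5 and 5 h, and a control was set beside them. The stated aim was to find genes regulated by signalling of the pre-B cell receptor. Strain, age, the drug dose, the treatment of the control, the number of mice and whether the cells were 1 clone are not given in the labels.

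The 16 samples are 4 sequencing lanes of 1 library for each of 4 conditions, so there were no replicates and no test across conditions was possible. Summed libraries held 34533362 total exon reads in the control, 33864004 at 0.5 h, 32631061 at 1.5 h and 30746189 at 5 h, and a count of 0 allows up to 0.0869 to 0.0976 CPM. Lanes of a library differed by close to sampling noise for the kept genes, their chi-square over its degrees of freedom being 0.872 to 1.22. Printed folds are ratios of CPM with exact Clopper-Pearson 95% intervals. These intervals cover counting error only, and a difference between 2 libraries cannot be told apart from a difference between preparations. All 3 comparisons with the control share that 1 library. In bulk RNA, fewer cells that express a gene and less RNA per cell cannot be told apart either.

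Type I interferons bind a receptor of the chains IFNAR1 and IFNAR2, whose kinases phosphorylate STAT proteins. STAT2 and IRF9 are parts of a complex that binds interferon-stimulated response elements and raises antiviral genes. Interferon gamma acts at gamma-activated sites and through IRF1. MHC class I molecules carry peptides cut by the immunoproteasome and pumped into the endoplasmic reticulum by the TAP transporter, and the coactivator NLRC5 drives many of these genes in lymphocytes.

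No interferon transcript reached 1 CPM. Of 19 interferon genes in the tables, 14 had 0 reads in every library, among them Ifnb1, Ifng, Ifnl2 and Ifnl3. The other ligand genes were at single reads or low: Ifna13 had 0, 2, 1 and 3 reads in the control and at 0.5, 1.5 and 5 h, Ifna2 and Ifna9 had 1 read each at 5 h, and Ifnab had 1, 0, 1 and 0 reads. Ifnz had 23, 32, 30 and 12 reads in the same order, of which 26.8% were uniquely placed. Here and below, values given for 4 libraries follow the order control, 0.5 h, 1.5 h and 5 h.

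Many of the genes most often used as signs of an interferon response were also close to the limit of detection. The 9 listed genes that stayed under 1 CPM were Ifit1, Ifit3, Isg15, Oasl2, Mx1, Mx2, Rsad2, Usp18 and Ifih1. Together they had between 111 and 138 reads per library. Isg15, a ubiquitin-like modifier, came nearest to the threshold with 0.753, 0.797, 0.981 and 0.748 CPM, and Usp18, the protease that removes it, had 0.927, 0.856, 0.889 and 0.813 CPM. Mx1, a GTPase that blocks viruses, had 2, 1, 0 and 0 reads, and Rsad2, the antiviral enzyme viperin, had 4, 3, 5 and 10 reads. Ifit1 had 1, 0, 0 and 3 reads. Just inside the threshold were Oas1a with at most 1.84 CPM and Irf7 with at most 2.40 CPM. Of the 9 genes under 1 CPM, the counting interval against the control excluded 1 for Ifit3 at 1.5 h, with 8 reads against 21 in the control, 2.48-fold lower (1.06 to 6.48). Only 62.3% of Ifit3 reads were uniquely placed, and on unique reads that interval included 1, at 2.38-fold lower (0.69 to 10.4). For the other 8 no difference from the control was detectable at this depth.

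The low level of these genes stood beside promoters that hold the interferon element. Sequences of 250 bases before to 50 after the transcription start were taken from RefSeq on GRCm38.p6, where 31 of the 39 genes matched. The letters GAAANNGAAA, searched on both strands, occurred in 5 of 6 matched genes under 1 CPM and in 7 of 12 matched interferon-induced genes above it. Among all 27025 genes with sequences of that length the share was 3.99%. A gene counted where any of its promoters held a match. The Isg15 promoter, chr4:156200769-156201068 on the minus strand, is shown because it holds 3 overlapping matches, which are in capitals, while the gene stayed under 1 CPM.
Isg15: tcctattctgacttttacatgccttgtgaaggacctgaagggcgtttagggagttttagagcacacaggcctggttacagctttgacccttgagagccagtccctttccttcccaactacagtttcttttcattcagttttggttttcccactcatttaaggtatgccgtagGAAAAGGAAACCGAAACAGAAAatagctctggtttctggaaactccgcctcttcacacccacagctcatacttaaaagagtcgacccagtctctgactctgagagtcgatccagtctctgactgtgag

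Kept genes covered a wide range of levels per exon length. B2m, the light chain of MHC class I, had 646 CPM per kb of exon in the control, H2-D1 had 254 and H2-K1 had 162 CPM per kb, and these last encode the classical heavy chains. These are total exon reads, of which 24.3% were uniquely placed for B2m, 80.9% for H2-D1 and 79.0% for H2-K1. On unique reads their order may differ. Antigen presentation genes had a median of 46.8 CPM per kb in the control, and the kept interferon-induced genes one of 7.03 CPM per kb. Trim25 and Gbp7 led the interferon-induced genes with 31.9 and 30.5 CPM per kb. MHC class I RNA was thus abundant, while of the interferon-induced genes Ifit1 had 0.011, Mx1 0.016 and Rsad2 0.027 CPM per kb in the same library.

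**Figure D1:**
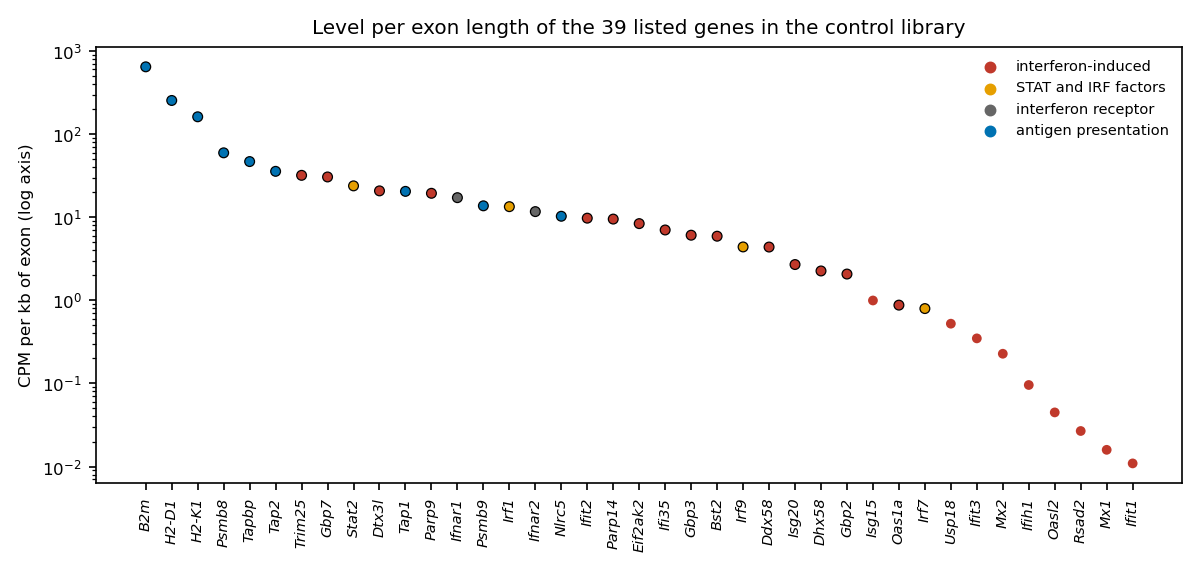
Level of each of the 39 listed genes in the control library, as CPM per kb of exon on a log axis; 1 point is 1 gene, coloured by list, and black rims mark genes kept at 1 CPM in any condition. In total exon reads B2m stands highest at 646 CPM per kb, with 24.3% of its reads uniquely placed. The 9 genes without a rim are all interferon-induced genes.

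After stimulation the kept genes were more often lower than higher than in the control, by modest amounts. On the log2 scale of CPM + 1, 23 of 30 were below 0 at 0.5 h, 23 at 1.5 h and 22 at 5 h, beside 50.9, 52.7 and 50.8% of all features at 1 CPM. Their median log2 ratio was -0.05 at 0.5 h, -0.23 at 1.5 h and -0.30 at 5 h, where that of all features was -0.00, -0.01 and -0.00. By list, interferon-induced genes had medians of -0.04, -0.25 and -0.19 at 0.5, 1.5 and 5 h, STAT and IRF factors had -0.17, -0.27 and -0.46, and antigen presentation genes had -0.07, -0.21 and -0.40. The middle 90% of all features ran between -0.51 and 0.45 at 5 h, and 9 of the 30 kept genes lay outside that band, 8 below it and 1 above.

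A call required a 2-fold ratio on the log2(CPM + 1) scale with 5 CPM in the higher library, and a 1.5-fold rule was set beside it. At 0.5 h, 0 kept genes passed either rule, in a comparison where 0.284% of callable features were called higher and 0.021% lower at 2-fold, and 0.673% higher and 0.147% lower at 1.5-fold. At 1.5 h, 0 passed at 2-fold, where 0.641% of features were higher and 0.21% lower. At 1.5-fold, 3 of 27 callable genes were lower at 1.5 h (Gbp2, Gbp3 and Irf1) and 0 higher, beside 1.99% lower and 3.37% higher among all features. At 5 h, Gbp2 alone of the kept genes was lower at 2-fold, where 0.399% of features were lower and 0.336% higher. The 1.5-fold rule gave 6 of 27 lower at 5 h (Gbp2, Gbp3, Ddx58, Dhx58, Psmb9 and Tap1) and 1 higher (Nlrc5), beside 2.98% lower and 2.21% higher. The 6 became 2 with 5 CPM added in place of 1 CPM, 3 with total gene reads and 4 with TMM scaling. Nlrc5 was called higher and Tap1 lower in each of these, while Gbp3 was called in none of them. Gbp2 was lost with 5 CPM added and with total gene reads.

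**Figure D2:**
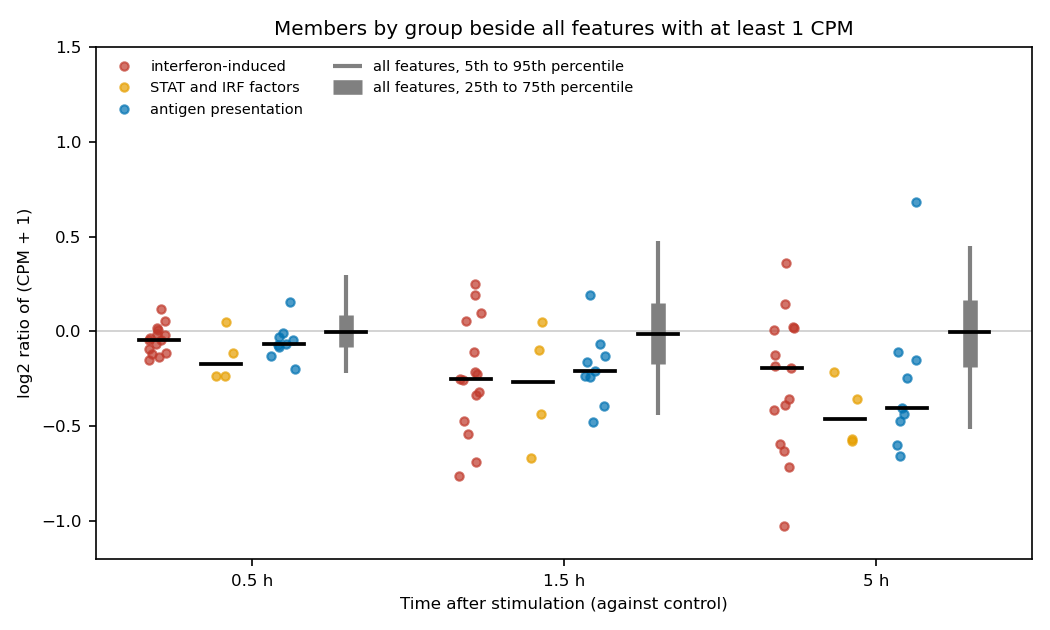
The log2 ratio of CPM + 1 against the control at 0.5, 1.5 and 5 h; each point is 1 kept gene of the interferon-induced, STAT and IRF or antigen presentation list, black lines are list medians, and grey bars show percentiles of all 11122 features. Antigen presentation genes have a median of -0.40 at 5 h, with Nlrc5 alone above 0.

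**Figure D3:**
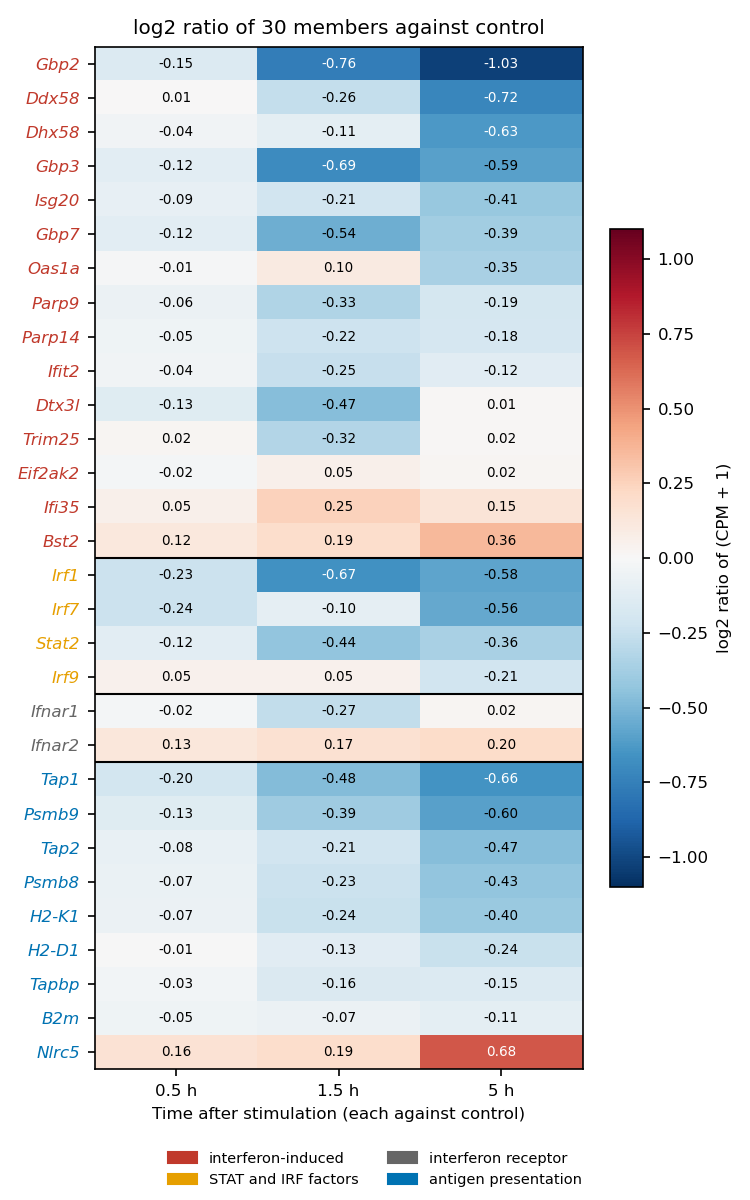
The log2 ratio of CPM + 1 of each kept gene at 0.5, 1.5 and 5 h against the control, blue for lower and red for higher, ordered within each list by the ratio at 5 h. Gbp2 reaches -1.03 at 5 h, and Nlrc5 reaches 0.68.

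Among interferon-induced genes, the guanylate-binding proteins, GTPases that attack the vacuoles of intracellular microbes, were lower at 1.5 and 5 h. Gbp2 (chromosome 3, 142620602 to 142638008, mm10) had 5.21, 4.61, 2.67 and 2.05 CPM. Its lanes spanned 4.53 to 5.72 CPM in the control, 3.8 to 5.43 at 0.5 h, 2.35 to 3.28 at 1.5 h and 1.43 to 2.47 at 5 h, so both later libraries lay below every control lane. Gbp2 was 1.95-fold lower at 1.5 h (1.51 to 2.56) and 2.54-fold lower at 5 h (1.90 to 3.45). Its 2-fold call at 5 h was lost with 5 CPM added, with a floor of 20 CPM, with total gene reads and without lane 3. Gbp3 had 19.7, 18.1, 11.8 and 12.7 CPM, with lanes of 10.9 to 13.5 CPM at 1.5 h and 10.3 to 14.9 CPM at 5 h, against 18.9 to 21.3 CPM in the control. That was 1.66-fold lower at 1.5 h (1.47 to 1.89) and 1.55-fold lower at 5 h (1.37 to 1.76). Gbp7, the most abundant of the 3, had 169.5, 156, 116 and 129 CPM. It was 1.46-fold lower at 1.5 h (1.40 to 1.52), short of the 1.5-fold rule. At 5 h it was 1.31-fold lower than in the control (1.26 to 1.36), but 1.11-fold higher than at 1.5 h (1.06 to 1.16). All 3 genes lie on chromosome 3 between 142530338 and 142638008 and hold the interferon element in the window searched. The Gbp2 window, chr3:142620413-142620712 on the plus strand, is shown for the gene that changed most, with its 1 match in capitals, on the opposite strand.
Gbp2: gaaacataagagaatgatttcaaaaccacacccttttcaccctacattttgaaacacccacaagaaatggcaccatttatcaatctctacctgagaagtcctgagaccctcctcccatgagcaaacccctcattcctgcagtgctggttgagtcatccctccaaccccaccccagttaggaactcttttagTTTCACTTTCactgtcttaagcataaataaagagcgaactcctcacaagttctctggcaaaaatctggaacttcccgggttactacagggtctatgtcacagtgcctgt

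Ddx58 and Dhx58, the kept genes of related RNA helicases, were lowest at 5 h. Ddx58, which encodes the viral RNA sensor RIG-I, had 30.9, 31.0, 25.7 and 18.4 CPM. Its lanes lay between 16.8 and 19.9 CPM at 5 h, against 30.3 to 32.1 CPM in the control, and it was 1.68-fold lower at 5 h (1.51 to 1.86). Dhx58, which encodes the related helicase LGP2, had 7.38, 7.18, 6.77 and 4.42 CPM. Its lanes spanned 3.65 to 4.98 CPM at 5 h, against 6.27 to 9.07 CPM in the control, and it was 1.67-fold lower at 5 h (1.35 to 2.07). Ifih1, the gene of the third such helicase, MDA5, had 27, 29, 27 and 19 reads, too few for a comparison. Eif2ak2, the RNA-activated kinase PKR, differed little, with 42.9, 42.3, 44.5 and 43.6 CPM.

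A group of interferon-induced genes was lowest at 1.5 h and nearer the control at 5 h. Dtx3l, a ubiquitin ligase that works as a complex with PARP9, had 119, 108, 85.6 and 119.6 CPM: 1.39-fold lower at 1.5 h than in the control (1.32 to 1.46) and 1.40-fold higher at 5 h than at 1.5 h (1.33 to 1.47). Trim25, the ubiquitin ligase that activates RIG-I, had 184, 186, 147 and 186 CPM and was 1.25-fold lower at 1.5 h (1.2 to 1.3). Parp9 had 94.6, 90.5, 74.8 and 82.7 CPM, Parp14 88.4, 85.5, 75.5 and 77.8 CPM, and Ifit2 38.3, 37.1, 32 and 35.1 CPM. Parp9 and Dtx3l overlap in the annotation, and the strand of counting is not stated, so their reads may be shared. In the comparison of 5 h with 1.5 h, 0 kept genes passed the 2-fold or the 1.5-fold rule, where 0.444% of features were lower and 0.0952% higher at 2-fold, and 2.12% lower and 1.3% higher at 1.5-fold. On the log2 scale 16 of 30 were below 0 in that comparison, beside 51.0% of all features.

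Other interferon-induced genes had lower levels or went the other way. Bst2, which encodes the virus-retaining membrane protein tetherin, had 4.52, 4.99, 5.30 and 6.08 CPM and was 1.35-fold higher at 5 h (1.08 to 1.68). Ifi35 had 12.1, 12.6, 14.6 and 13.5 CPM and was 1.21-fold higher at 1.5 h (1.06 to 1.38). Isg20, an RNA exonuclease, had 4.92, 4.55, 4.11 and 3.45 CPM and was 1.43-fold lower at 5 h (1.11 to 1.84). Oas1a, which senses double-stranded RNA, had 1.65, 1.62, 1.84 and 1.07 CPM. It was 1.71-fold lower at 5 h than at 1.5 h (1.1 to 2.71). Its lanes overlapped in that comparison, with 0.78 to 1.43 CPM at 5 h and 0.85 to 2.46 CPM at 1.5 h. Only 53.2% of Oas1a reads were uniquely placed. Lanes of the stimulated libraries overlapped those of the control for Isg20 and Oas1a at all 3 times.

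**Figure D4:**
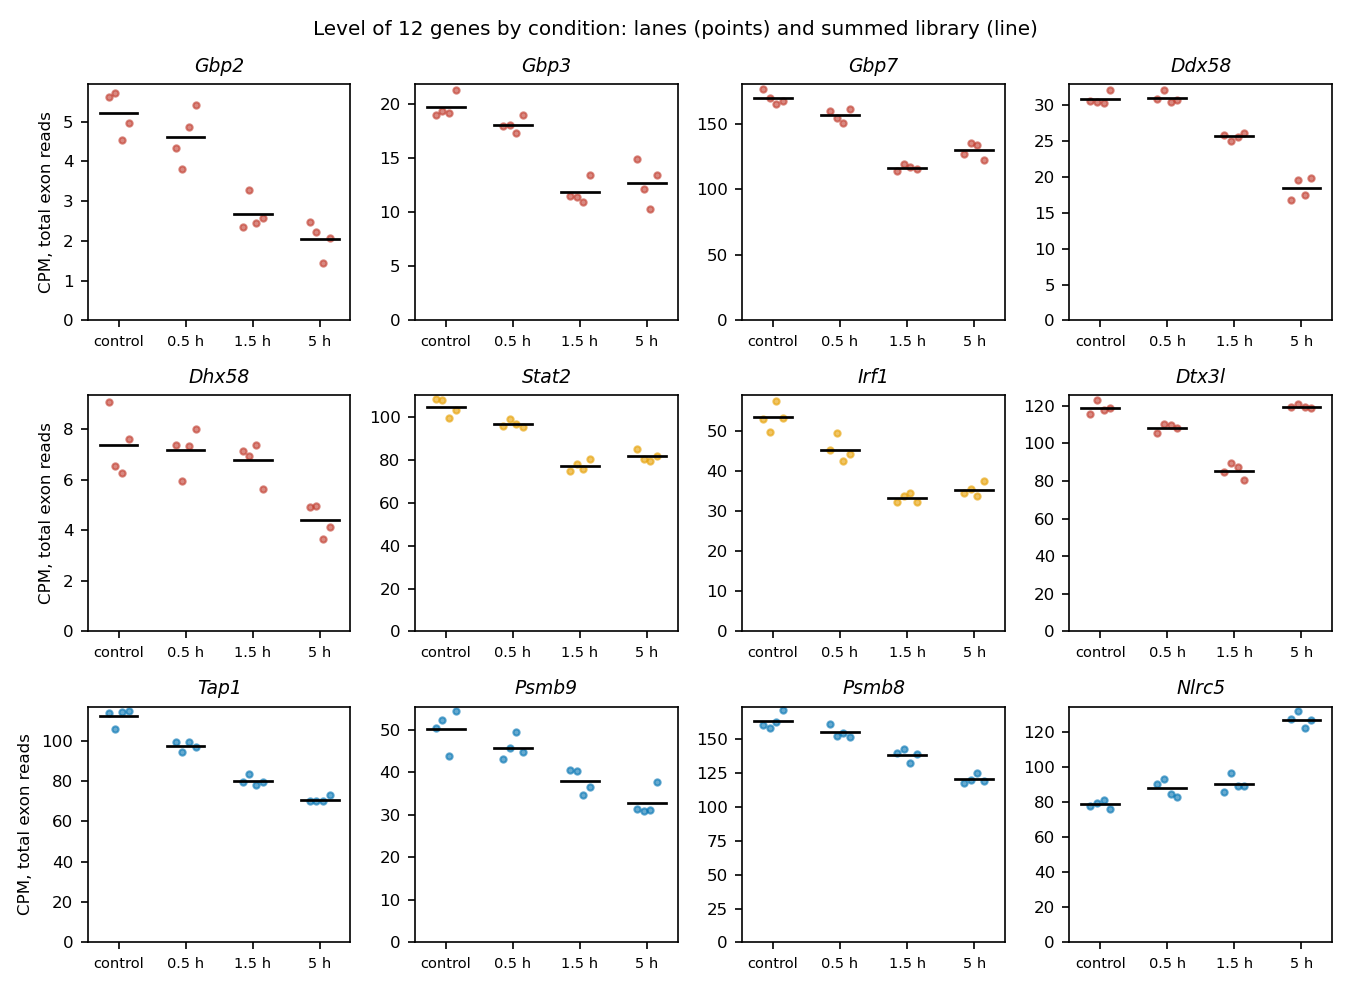
CPM of total exon reads of 12 genes by condition; points are the 4 lanes of a library, which are repeat runs and not replicates, lines are the summed library, and each vertical axis starts at 0. Gbp2, Irf1, Tap1 and Psmb9 lie lower in the 1.5 and 5 h libraries, Dtx3l is lowest at 1.5 h with 85.6 CPM, and Nlrc5 is highest at 5 h with 127 CPM.

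Of the transcription factors, Irf1, which acts downstream of interferon gamma, was the only 1 past the 1.5-fold rule, at 1.5 h. It had 53.3, 45.2, 33.2 and 35.4 CPM, with lanes of 32.2 to 34.6 CPM at 1.5 h and 33.8 to 37.6 CPM at 5 h, against 49.8 to 57.5 CPM in the control. Irf1 was 1.18-fold lower at 0.5 h, 1.61-fold lower at 1.5 h (1.49 to 1.73) and 1.51-fold lower at 5 h (1.40 to 1.63). The last of these missed the 1.5-fold rule on the log2(CPM + 1) scale by a small margin, at -0.58. The Irf1 window, chr11:53769764-53770063 on the plus strand, is shown because it alone of the 4 factors holds the letters TTCNNNGAA of a gamma-activated site, in capitals. Of all genes with such sequences, 9.55% hold these letters.
Irf1: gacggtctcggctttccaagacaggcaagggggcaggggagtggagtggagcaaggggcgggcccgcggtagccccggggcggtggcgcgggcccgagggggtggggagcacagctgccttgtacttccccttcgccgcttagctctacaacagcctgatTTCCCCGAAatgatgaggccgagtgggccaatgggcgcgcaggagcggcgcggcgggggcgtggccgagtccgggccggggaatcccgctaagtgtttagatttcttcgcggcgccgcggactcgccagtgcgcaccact

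Stat2, a part of the complex that type I interferons activate, had 105, 96.7, 77.3 and 81.7 CPM. Its lanes spanned 75 to 80.5 CPM at 1.5 h and 79.4 to 85.3 CPM at 5 h, below those of the control at 99.7 to 108 CPM. It was 1.36-fold lower at 1.5 h (1.29 to 1.43) and 1.28-fold lower at 5 h (1.22 to 1.35). Irf7, which amplifies interferon production, had 2.40, 1.89, 2.18 and 1.3 CPM and was 1.85-fold lower at 5 h (1.25 to 2.77), but its lanes at 5 h ran between 0.39 and 2.07 CPM, against 1.95 to 2.57 CPM in the control, and overlapped. Irf9 had 23.7, 24.5, 24.5 and 20.3 CPM, 1.17-fold lower at 5 h (1.05 to 1.3), with lanes of 19.1 to 22.8 CPM at 5 h that overlapped 20.5 to 25.7 CPM in the control. So Irf1 and Stat2 were lower at 1.5 h, while Irf9 was near the control at that time. At 0.5 h the lanes of Irf1, 42.4 to 49.3 CPM, and of Stat2, 95.4 to 99.0 CPM, already lay just below the control lanes. Among all features 10.7% lay wholly below at 0.5 h.

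The receptor chains did not move together. Ifnar1 had 101, 99.4, 83.7 and 103 CPM and was 1.21-fold lower at 1.5 h (1.15 to 1.27). Its lanes spanned 80.3 to 87.9 CPM at 1.5 h, against 98.4 to 104 CPM in the control, and lay at 100.1 to 107 CPM at 5 h. Ifnar2 had 38.9, 42.6, 43.9 and 44.8 CPM and was 1.15-fold higher at 5 h (1.07 to 1.24), with lanes of 42.5 to 47.3 CPM at 5 h, above 38.2 to 40.5 CPM in the control. Only 40.6% of Ifnar2 reads were uniquely placed, and a predicted gene overlaps it.

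Antigen presentation genes were lower at each later time for most of the list. Of the 9, 7 had their lowest level at 5 h, and 8 of 9 were below 0 on the log2 scale at each time. Summed over the list they had 2326, 2258, 2088 and 1974 CPM. All 24 listed interferon-induced genes summed to 827, 795, 652 and 740 CPM. Of the 15 kept, 7 were lowest at 1.5 h and 5 at 5 h. Over all features, 24.8% were lowest at 1.5 h and 31.5% at 5 h.

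Tap1, which forms the peptide transporter with TAP2, had 112, 97.6, 80.3 and 70.8 CPM. Its lanes lay at 94.4 to 99.6 CPM at 0.5 h, 78.1 to 83.7 CPM at 1.5 h and 69.9 to 73.0 CPM at 5 h, against 106 to 115 CPM in the control, with no overlap between any libraries. Tap1 was 1.15-fold lower at 0.5 h, 1.40-fold lower at 1.5 h (1.33 to 1.47) and 1.58-fold lower at 5 h (1.50 to 1.67). Psmb9, an immunoproteasome subunit gene that starts next to Tap1 and is read in the opposite direction, had 50.2, 45.8, 38.0 and 32.8 CPM. Its lanes spanned 30.9 to 37.8 CPM at 5 h, against 43.9 to 54.3 CPM in the control, and it was 1.53-fold lower at 5 h (1.41 to 1.66). In RefSeq 225 bases lie between their start sites, and the Tap1 window is shown because that stretch, in capitals, is shared by both promoters. It is chr17:34187306-34187605 on the plus strand. The 2 genes overlap in the annotation of the tables as well, so some reads could be counted for either.
Tap1: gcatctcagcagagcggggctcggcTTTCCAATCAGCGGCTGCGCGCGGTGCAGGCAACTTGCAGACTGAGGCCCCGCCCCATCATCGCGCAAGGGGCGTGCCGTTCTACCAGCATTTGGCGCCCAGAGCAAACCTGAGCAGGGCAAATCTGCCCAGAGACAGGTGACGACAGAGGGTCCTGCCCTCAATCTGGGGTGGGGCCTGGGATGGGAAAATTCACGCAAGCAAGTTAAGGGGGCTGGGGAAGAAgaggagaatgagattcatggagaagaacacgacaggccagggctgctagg

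The other genes of the pathway followed with smaller differences. Tap2 had 135, 127, 117 and 97.2 CPM, with lanes of 89.9 to 100.4 CPM at 5 h, against 132 to 138 CPM in the control, and was 1.39-fold lower at 5 h (1.33 to 1.45). Psmb8, another immunoproteasome subunit, had 163, 155, 138 and 120.5 CPM and was 1.35-fold lower at 5 h (1.3 to 1.41). Only 54.0% of Psmb8 and 66.9% of Tap2 reads were uniquely placed, and on unique reads Psmb8 was 1.31-fold lower. The annotated feature Gm20496 overlaps both genes, and Gm15821 overlaps Tap2 as well. H2-K1 had 422, 403, 357 and 319 CPM and was 1.32-fold lower at 5 h (1.29 to 1.36). H2-D1 had 656, 652, 599.9 and 554 CPM and was 1.18-fold lower at 5 h (1.16 to 1.21). H2-K1 and H2-D1 have close relatives in the MHC, so reads of one can be counted for another.

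B2m had 556, 538, 530.1 and 515 CPM, 1.08-fold lower at 5 h (1.06 to 1.1), and 24.3% of its reads were uniquely placed. Tapbp, the tapasin that links TAP to class I molecules, had 154, 151, 138 and 139 CPM and was 1.11-fold lower at 5 h (1.07 to 1.16). On unique reads B2m was 1.12-fold lower.

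Nlrc5, the coactivator of MHC class I genes, differed in the other direction from its listed targets. It had 78.6, 87.7, 90.1 and 127 CPM. Its lanes lay at 82.9 to 93.1 CPM at 0.5 h, 85.6 to 96.6 CPM at 1.5 h and 122 to 132 CPM at 5 h, all above the control lanes at 76.1 to 81.1 CPM. Nlrc5 was 1.12-fold higher at 0.5 h, 1.15-fold higher at 1.5 h (1.09 to 1.21) and 1.61-fold higher at 5 h (1.54 to 1.70). All 8 other genes of the list were lower at 5 h than in the control, the TAP, immunoproteasome and heavy chain genes among them.

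Lanes of a stimulated library lay wholly below those of the control for 7 of 30 kept genes at 0.5 h, 20 at 1.5 h and 18 at 5 h, and wholly above for 1, 3 and 3. Among all features 10.7, 23.1 and 24.5% lay wholly below and 13.8, 23.4 and 24.2% wholly above at these times. Between 5 h and 1.5 h, 7 kept genes lay wholly below and 7 wholly above, beside 21.3 and 19.7% of all features. Lanes measure counting and loading of 1 library and say nothing of variation between cultures.

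**Figure D5:**
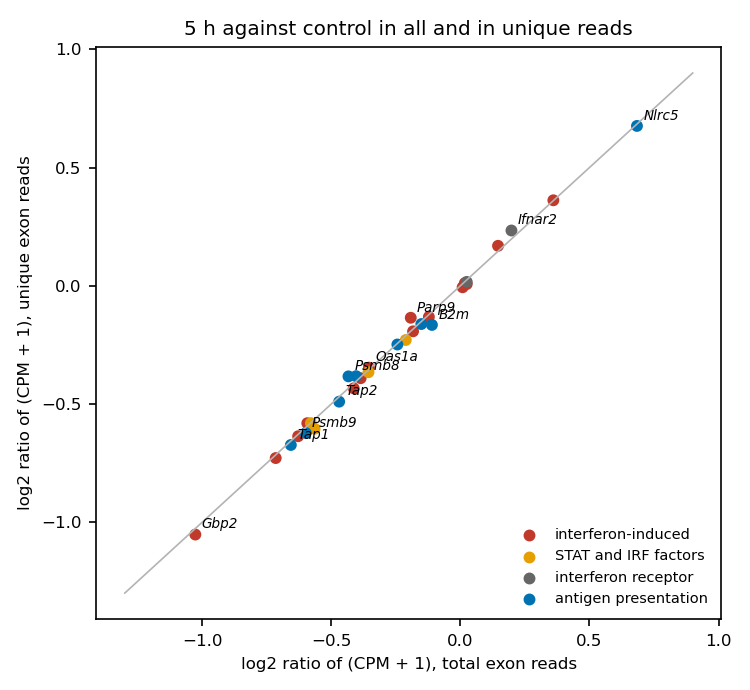
Ratio of 5 h to the control as log2 of CPM + 1, from total exon reads on the horizontal axis and from uniquely placed exon reads on the vertical axis, with 1 point per kept gene and a line where both are equal. The points lie close to the line, with Gbp2 at the lower left and Nlrc5 at the upper right.

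Reads outside exons, the gene reads less the exon reads, gave a second view of genes with at least 400 such reads in the 4 libraries, which 17 kept genes had. They include unspliced RNA and overlapping features, and the parts were not separated. At 1.5 h, 10 of the 17 had an interval below 1 and 4 an interval above 1, where 20.1% of features with enough reads were lower and 36.4% higher. At 5 h, 2 were lower and 4 higher, beside 7.81% lower and 41.5% higher, and at 0.5 h, 5 were lower and 4 higher, beside 17.0 and 18.5%. Gbp7 had 217, 151, 77 and 221 such reads and was 2.68-fold lower at 1.5 h (2.06 to 3.52), beside 1.46-fold in exon reads. Stat2 was 1.48-fold lower at 1.5 h (1.27 to 1.74) and Ifnar1 1.42-fold lower (1.26 to 1.60). In other genes these reads did not follow the exon reads. At 5 h, Ddx58 had a ratio to the control of 0.908 (0.766 to 1.07), beside 1.68-fold lower in exon reads. Tap2 was 1.03-fold lower at 5 h (0.91 to 1.18), beside 1.39-fold lower in exon reads. H2-K1 was 1.12-fold higher at 1.5 h (1.03 to 1.21), but lower in exon reads. Eif2ak2 was 1.49-fold higher at 0.5 h (1.29 to 1.73) and 1.53-fold higher at 5 h (1.31 to 1.77), while its exon reads differed little. Nlrc5 had 663, 666, 958 and 967 reads outside exons and was 1.52-fold higher at 1.5 h (1.38 to 1.68) and 1.61-fold higher at 5 h (1.46 to 1.78), so at 1.5 h these reads stood further above the control than its exon reads did.

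Among 31 other signalling genes, 28 were kept, with medians of -0.04, -0.11 and -0.14 at 0.5, 1.5 and 5 h. By the 1.5-fold rule 1 was higher and 0 lower at 0.5 h, 2 were higher and 2 lower at 1.5 h, and 1 was higher and 2 lower at 5 h. These counts are of 27 callable genes at 0.5 and 1.5 h and 26 at 5 h. Among all features 0.673% were higher and 0.147% lower at 0.5 h, 3.37% higher and 1.99% lower at 1.5 h, and 2.21% higher and 2.98% lower at 5 h. Ptpn6, the phosphatase SHP-1 that restrains receptor signalling, had 224, 242, 407 and 386 CPM and was 1.82-fold higher at 1.5 h (1.77 to 1.87). Tlr9, a sensor of unmethylated DNA, had 21.9, 33.3, 41.8 and 24.9 CPM and was 1.91-fold higher at 1.5 h (1.75 to 2.09). Socs3, an inhibitor of cytokine signalling, had 7.93, 7.91, 3.59 and 4.29 CPM and was 2.21-fold lower at 1.5 h (1.78 to 2.77). Tmem173, which encodes the adaptor STING, had 83.3, 76.0, 63.5 and 52.9 CPM and was 1.58-fold lower at 5 h (1.48 to 1.68).

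In a further 81 interferon-induced genes, 60 were kept, and 37, 49 and 50 of them were below 0 on the log2 scale at 0.5, 1.5 and 5 h. Their medians were -0.04, -0.18 and -0.21. By the 1.5-fold rule 2 were lower and 0 higher at 1.5 h, and 4 were lower and 1 higher at 5 h, of 50 callable genes. All features gave 1.99% lower and 3.37% higher at 1.5 h, and 2.98% lower and 2.21% higher at 5 h. Gbp5, a further guanylate-binding protein, had 8.43, 5.94, 3.95 and 5.85 CPM and was 2.13-fold lower at 1.5 h (1.73 to 2.64). Tdrd7 was 1.72-fold lower at 5 h (1.45 to 2.05). Trim34a was 1.65-fold lower at 1.5 h, with 39.9% of its reads uniquely placed. Phf11b had 5.76, 5.73, 7.39 and 10.2 CPM and was 1.77-fold higher at 5 h (1.47 to 2.12), with 50.7% unique.

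Of 33 other antigen presentation genes, 30 were kept, with medians of -0.02, -0.03 and -0.06. Only the nonclassical class I genes H2-T10 and H2-T23 passed the 1.5-fold rule, lower at 5 h, with 22.9 and 33.7% of reads unique. Of 11 MHC class II genes 5 were kept, and only 1 was callable, H2-Ob, which encodes a chain of the peptide-loading regulator H2-O. It had 83.9, 75.2, 64.0 and 60.4 CPM, with a log2 ratio of -0.47 at 5 h, and did not pass the 1.5-fold rule. Cd74, the invariant chain, had 2.64, 2.21, 2.39 and 2.54 CPM.

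Markers of the labelled cell type were present. All 13 pre-B cell markers in the tables were at 1 CPM or more, with summed levels of 13292, 12589, 11646 and 11093 CPM. Of the other cell types, 4 of 12 myeloid markers were at 1 CPM or more, with sums of 77.0, 76.4, 67.7 and 43.9 CPM, mostly from Itgam at 69, 66.3, 58.5 and 35.9 CPM. Csf1r, Csf3r and Elane had at most 9 reads. Plasmacytoid dendritic cell markers reached 1 CPM in 4 of 9, with sums between 479 and 648 CPM. Most of that came from Zeb2 at 306, 397, 259 and 304 CPM and Tcf4 at 224, 239.5, 209.8 and 259 CPM. Cox6a2 and Itgax were at 5.55 CPM or less, Siglech had 13, 7, 9 and 3 reads, and Clec10a had 0. T and NK cell markers reached it in 2 of 11, summing to 52.6 to 62.6 CPM, with Cd4 and Ncr1 at 0. The 2 were Lck at 36.1, 35.8, 38.5 and 42.2 CPM and Klrb1c at 16.3, 17.7, 13.8 and 19.6 CPM. Stromal markers reached it in 0 of 9, with at most 10 reads in any library. The myeloid and pre-B sums were lower at 5 h than in the control, as the antigen presentation genes were, and their part in those results was not tested.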

How the data were processed

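Per the labels' protocols, RNA was isolated with PeqGOLD TriFast, poly(A) RNA was enriched, and either a TruSeq or a NEBNext kit was used for a library, without saying which. Per the submitters' processing notes, CASAVA 1.8.2 and mm10 were used. Any aligner is not given in the sources used here, nor is a counter. The 3 deposited tables give raw read counts for each gene in each lane, per the file headers, split into total and unique reads of exons and of genes. The control counts are the same in all 3 tables, and 0 columns were left unmatched to a sample.

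Samples were grouped by the time in the labels, the 4 lanes of a library were summed, and CPM was taken over total exon reads. Lanes are repeat runs of 1 library, so no test was run and no p-value is given. The log2 ratio added 1 CPM to each library. A call needed 2-fold and 5 CPM in the higher library, with 1.5-fold beside it. Levels between genes were divided by exon length. All members and gene lists were chosen with earlier results of these data known. Lane values are given for the 4 genes with the largest ratios in the interferon-induced and antigen presentation lists, and for all factors and receptor chains. Of the other lists, at most 4 genes past the 1.5-fold rule are named. Alternatives were TMM and DESeq2 scaling, adding 0.1 or 5 CPM, a floor of 1 or 20 CPM, unique exon reads, gene reads, member filters and leaving out each lane. The counting of calls was tested on simulated data. Python 3.11.15, pandas 2.3.3, numpy 2.4.6, scipy 1.17.1, matplotlib 3.10.9, R 4.3.3, edgeR 4.0.16 and DESeq2 1.42.0 were used, the last pair for scaling factors only.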

Additional observations from a re-analysis of the deposited data

How the results depend on the processing

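With 1 library per condition, the counts and medians describe these 4 libraries. At 2-fold, 1 kept gene, Gbp2, was called lower at 5 h, and with 5 CPM added, a floor of 20 CPM or total gene reads the number was 0. Leaving out 1 lane at a time gave 0 to 1, with 0 without lane 3. With the 1.5-fold rule, 3 were lower at 1.5 h, and 6 were lower and 1 higher at 5 h. Under that rule at 5 h, TMM gave 4 lower, DESeq2 factors 5, a pseudocount of 0.1 CPM 7, one of 5 CPM 2, unique reads 5 and gene reads 3. Leaving out lane 1, 2, 3 or 4 gave 4, 5, 5 and 6 lower, with Irf1 among them without lane 2 or lane 4. Nlrc5 was called higher and Tap1 lower at 5 h in each of these. Gbp3 was called lower at 5 h only with a pseudocount of 0.1 CPM and without lane 1 among them. At 1.5 h, a pseudocount of 5 CPM gave 1 lower and gene reads 2. The median of interferon-induced genes between 5 h and 1.5 h was 0.04 and reversed to -0.0031 with no filter on members. The median of STAT and IRF factors in that comparison was -0.09 and reversed to 0.079 with members kept from 5 CPM. Both settings change which genes enter the median. No filter adds the 9 genes under 1 CPM, and the 5 CPM filter drops Irf7, whose log2 ratio in that comparison was -0.46. With the lane as a replicate block, the mean of lane-wise log2 ratios gave 1 gene lower at 5 h and medians of -0.25, -0.27 and -0.21 at 1.5 h for interferon-induced genes, STAT and IRF factors and antigen presentation genes, and changed no call. Lane numbers mark sequencing lanes, not pairs of cultures. The sign of the ratio stayed the same in every alternative run for 19 of 30 genes at 0.5 h, 28 at 1.5 h and 26 at 5 h. The exceptions at 1.5 h were Irf9 and Oas1a, and at 5 h Dtx3l, Eif2ak2, Ifnar1 and Trim25. Floors and the 1.5-fold rule do not enter the medians. Scaling by TMM or DESeq2 factors moved the median of all features by less than 0.1. Depth limited what the genes under 1 CPM can show.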

Other observations

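Immunoproteasome and constitutive proteasome genes are set side by side here. These genes were chosen after their values were seen, and no test was possible. In the immunoproteasome, PSMB8, PSMB9 and PSMB10 take the place of the catalytic subunits PSMB5, PSMB6 and PSMB7. Psmb5 had 121, 129, 130.1 and 135 CPM in the control and at 0.5, 1.5 and 5 h, where its counterpart Psmb8 was 1.35-fold lower at 5 h. Psmb6 had 116, 112, 102 and 96.0 CPM, so both it and its counterpart Psmb9 were lower at 5 h. Psmb7 had 122, 117, 122 and 117 CPM, and its counterpart Psmb10 had 39, 37, 37.1 and 39 CPM, with 30.5% of reads unique. The chaperone gene Calr had 413.7, 403, 427 and 434 CPM, Pdia3 had 409, 376, 425 and 448 CPM, and the peptide-trimming enzyme gene Erap1 had 73.3, 73.4, 74.2 and 87.0 CPM.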
